A study of Mus musculus with 4 samples.

Results

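Extracellular vesicle biogenesis and release genes are the genes whose products sort cargo into vesicles, pinch the vesicles off a membrane and bring them to the cell surface. The genes were taken by name, from a list of 45. It was made of ESCRT subunits, tetraspanins, RAB proteins, syntenin with its syndecan partners, neutral sphingomyelinases, flotillins and SNAREs. The rule goes by names and uses no measured value, but the list was chosen with earlier results of these data known. Of the 45, 44 had a row among the 43432 genes of the count table, named through GENCODE M21, and Vps28 was not analysed here because its M21 identifier matched no row. The question put to them was whether tumours from mice that received extra vesicles differed in the vesicle machinery from tumours that received antibody alone.

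The tissue was 4 tumours grown under the skin of female C57BL/6 mice from 9464D-GD2 cells, read by stranded mRNA sequencing. The line 9464D is a mouse neuroblastoma derived from an animal with a MYCN transgene, and 9464D-GD2 cells display the ganglioside GD2, the target of the antibody dinutuximab. In the sEV group, 2 tumours came from mice given dinutuximab at 25 µg together with 20 µg of sEVs, the small extracellular vesicles that 9464D-GD2 cells had made. In the dinutuximab group, 2 tumours came from mice given the same 25 µg of antibody alone. Dosing was 2 times per week for 5 treatments in both groups, so every tumour was under the antibody and none was untreated. Tumours are called 3 and 4 in both groups, with no word on whether the numbers mark anything shared. The labels give no age and no time between the last dose and collection. Because the vesicles came from the same cell line as the tumours, RNA carried in by vesicles and RNA made in the tumour cannot be told apart in these counts. The tissue is a whole tumour, in which fewer cells of a type and less RNA per cell cannot be told apart either.

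The sEV libraries held 26164711 and 28187573 counts and the dinutuximab libraries 26312447 and 24452699. Each library detected 18818 to 19164 genes. The first principal component (42.4% of the variance) put sEV tumour 3 at 35.2 and the other libraries between -16.3 and -5.96. Results are therefore also given without sEV tumour 3. Among the 13 markers of adrenergic neuroblastoma cells, 6 passed the filter on low counts, with Mycn at 3422 to 4194 counts and Hand2 at 3532 to 4956 counts per library, while Dbh, which encodes the enzyme that makes noradrenaline, had 0 counts in all 4. The 4 measured collectors of ribosomal RNA reads summed to 47683 and 39744 CPM, counts scaled to library size, in the sEV tumours. In the dinutuximab tumours they summed to 58638 and 59743 CPM. The 14 macrophage markers summed to 3592 and 3571 CPM in the sEV tumours, against 2790 and 3178 CPM in the dinutuximab tumours, and 13 of the 14 had positive log2 fold changes. All 6 red blood cell markers were positive and did not overlap between groups (median 1.19), 11 of 12 immediate early and heat shock genes were negative (median -0.33), and so were 8 of 9 endothelial markers (median -0.48). Of the fibroblast and pericyte markers 7 of 10 were negative (median -0.63), Acta2 and Tagln being at -2.04 and -2.09 but Dcn and Col3a1 at 0.54 and 0.37, and all 5 tested skeletal muscle markers were negative (median -0.75). Over all tested genes, 50.3% had positive values, and in 34.6% the groups did not overlap. By the edgeR test described below, 0 of these markers were called at an adjusted p under 0.05. The part of these cell types and RNA quality signs in the members' values was not tested.

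Small vesicles form by more than one route. In multivesicular endosomes, the ESCRT complexes act in sequence: ESCRT-0 and ESCRT-I gather ubiquitinated cargo, ESCRT-II links them to ESCRT-III, ESCRT-III filaments narrow the neck of the bud, and the ATPase VPS4 takes the filaments apart. Syntenin with ALIX, tetraspanin domains and ceramide made by neutral sphingomyelinase drive budding that depends less on the early ESCRT complexes. RAB proteins and SNAREs then bring the multivesicular body to the plasma membrane and fuse it, which frees the vesicles.

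Most vesicle genes were well expressed in every tumour, and no difference in their levels was called between the sEV and dinutuximab groups. With edgeR's quasi-likelihood test, p-values being adjusted by Benjamini-Hochberg over all genes, 0 of 42 tested members were higher and 0 lower at an adjusted p under 0.05, where 0% of the 13823 tested genes were called. Over all genes DESeq2 called 17 higher and 38 lower, and limma-voom 0 and 0. The smallest adjusted p of a member was 0.869, for the SNARE gene Vamp7. At an unadjusted p under 0.05, 1 member was higher and 0 lower, against 2.47% and 3.10% of all tested genes. DESeq2 called 0 members, with 0 at an unadjusted p under 0.05, and limma-voom called 0, with 1. The groups did not overlap in 11 of 42 members (26.2%), against 34.6% of all tested genes, so that separation of the groups was no more common among the vesicle genes than elsewhere. In 7 of these the sEV tumours lay above the dinutuximab tumours, a pattern of 18.1% of all genes, and in 4 they lay below, a pattern of 16.5%. The members were not matched for level with all tested genes, and stood higher than most of them, as given below. The shares are therefore a description only.

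Differences were small as well as uncalled. The median log2 fold change, sEV over dinutuximab, was 0.09 over the 42 members (SD over genes 0.18) and 0.00 over all tested genes. The median absolute value was 0.11 in the members and 0.15 in all tested genes. Members and all tested genes were not matched for level in these comparisons or in those that follow. Only Smpd3, at most 19 counts in a library, was past 1.5-fold, against 7.49% of all tested genes. The 95% interval of the fold change lay inside a 1.5-fold change in either direction for 33 of the 42 members, and inside a 2-fold change for 39. The 3 members with wider intervals than that were Rab27a, Rab27b and Smpd3, the tested members of lowest level. In 36 of 42 members the gap between the tumours of at least 1 group was larger than the difference between the groups. A gap between single tumours tends to exceed a difference of means even without a group effect. The share over all tested genes was not counted. The larger within-group gap had a median log2 value of 0.23 in the members and 0.30 in all tested genes.

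**Figure D1:**
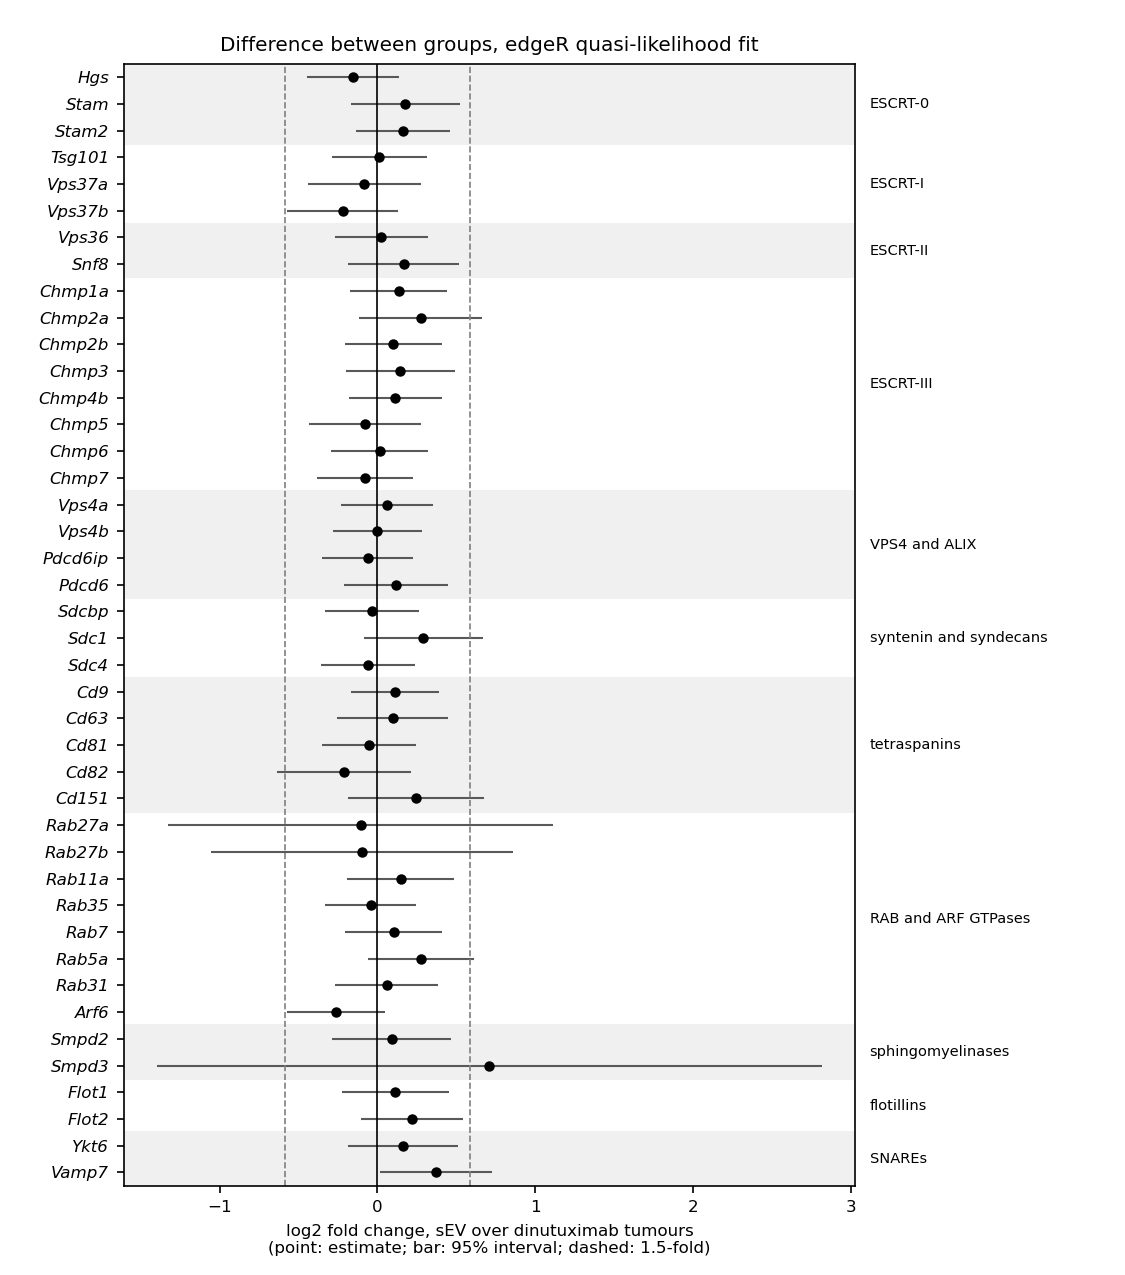
Log2 fold change of each tested member, sEV over dinutuximab tumours, on the horizontal axis, with points for the edgeR estimate, bars for its 95% interval and dashed lines at 1.5-fold. The intervals of 33 of the 42 members stay between the dashed lines, and those of Rab27a, Rab27b and Smpd3 are the widest.

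Levels that can be set between genes were computed as TPM, scaled for gene length and library size, from the counts and the GENCODE exon lengths. The median member stood at 92.8 TPM, against 14.2 TPM for all tested genes, and 20 of the 44 members were above 100 TPM. The tetraspanin gene Cd9 was the most abundant, at 697 ± 50.6 TPM (SD over the 4 tumours). It was followed by Arf6, which encodes a small GTPase of endosome traffic (551 ± 60.9 TPM), the syndecan gene Sdc4 (479 ± 15.9 TPM) and Cd63 (435 ± 48.5 TPM). Cd9 lay above Arf6 by more than their SDs together, whereas Arf6 and Sdc4, and Sdc4 and Cd63, lay within theirs. On GRCm38, Cd9 lies on chromosome 6 from 125460266 to 125494791, minus strand, Arf6 on chromosome 12 from 69372150 to 69373783, plus strand, and Rab5a on chromosome 17 from 53479234 to 53507680, plus strand. At the other end, 5 members were below 1 TPM: Rab27a, Tspan8, Vps25, Rab27b and Smpd3. The RAB27 proteins dock multivesicular bodies at the plasma membrane, and neutral sphingomyelinase 2, the product of Smpd3, makes ceramide for budding.

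**Figure D2:**
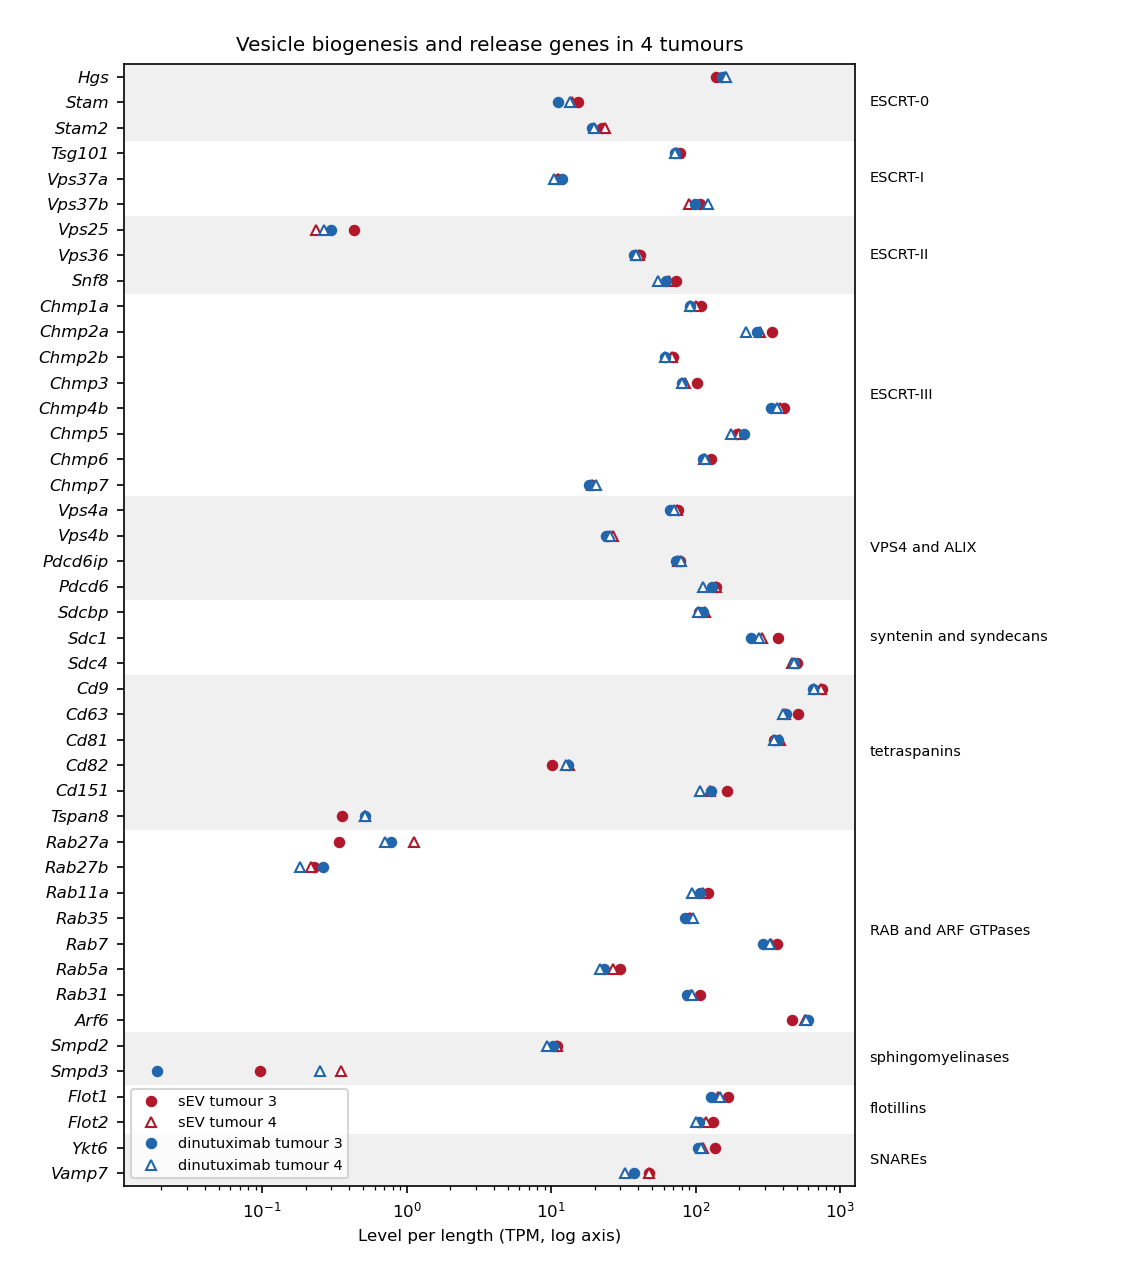
Level of each of the 44 members in each tumour (TPM, log axis), grouped by role, with sEV tumours in red and dinutuximab tumours in blue. Most members lie above 10 TPM with the 4 tumours close together, while Vps25, Tspan8, Rab27a, Rab27b and Smpd3 lie below or near 1 TPM.

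Promoter sequence was set beside this range of levels. RefSeq gave 40 promoter entries for 33 of the 44 members on GRCm38.p6, and the 250 bases before each gene start were read. They held a median of 16 CpG dinucleotides, against 6 in all 32851 promoter entries. The GC box, GGGCGG on one strand or CCGCCC on the other, was in 57.5% of the member entries, against 32.7% of all entries. The TATA box letters TATAAA or TTTATA were in 2.5% of the member entries, against 12.4% of all. The set of all entries was not matched to the members for level, and some members gave several entries. Whether these contrasts, or that of the E-box below, are particular to vesicle genes was not tested. The first promoters printed here, each the 250 bases before the start, are shown for their level, with CpG in capitals: Cd9, the most abundant member, with 16 CpG, Rab27a, with 14, and Tspan8, with 4.
Cd9, GRCm38.p6, chr6:125494761-125495010, minus strand: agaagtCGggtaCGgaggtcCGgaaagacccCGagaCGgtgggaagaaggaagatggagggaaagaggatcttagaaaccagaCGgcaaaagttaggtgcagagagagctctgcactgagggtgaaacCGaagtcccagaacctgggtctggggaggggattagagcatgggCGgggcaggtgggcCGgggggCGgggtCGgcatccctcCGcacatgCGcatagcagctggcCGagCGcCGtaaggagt
Rab27a, GRCm38.p6, chr9:73044560-73044809, plus strand: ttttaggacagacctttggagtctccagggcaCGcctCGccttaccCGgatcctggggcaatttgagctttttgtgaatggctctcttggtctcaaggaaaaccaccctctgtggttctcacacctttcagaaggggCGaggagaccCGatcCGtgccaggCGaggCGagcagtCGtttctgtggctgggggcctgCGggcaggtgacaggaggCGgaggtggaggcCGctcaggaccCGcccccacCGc
Tspan8, GRCm38.p6, chr10:115817034-115817283, plus strand: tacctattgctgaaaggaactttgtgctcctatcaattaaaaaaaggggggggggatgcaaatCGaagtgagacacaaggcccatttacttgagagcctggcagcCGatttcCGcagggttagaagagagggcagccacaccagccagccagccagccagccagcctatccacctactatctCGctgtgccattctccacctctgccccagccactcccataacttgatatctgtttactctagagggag
The Rab27a promoter held nearly as many CpG as that of Cd9, at a level of 0.736 ± 0.322 TPM against 697 ± 50.6 TPM (SD over the 4 tumours). Tspan8, with fewer CpG, stood at 0.474 ± 0.0792 TPM. Rab27a has another RefSeq start on the same chromosome, with 5 CpG before it.

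The E-box CACGTG, the core letters read by MYC family factors and by TFEB, a regulator of lysosome genes, stood in 10% of the member entries, against 6.02% of all entries. The members were Pdcd6ip, Rab27a, Rab5a and Smpd2. For Rab27a the E-box lay before its other RefSeq start, and the promoter printed above held none. A longer palindrome that contains the E-box, with gt before it and ac after it, was in 1 member entry (2.5%), that of Rab5a, and in 0.24% of all entries. Stretches of 80 bases around the site are shown with the E-box in capitals, for Rab5a because its groups did not overlap and for Pdcd6ip because it encodes ALIX.
Rab5a, GRCm38.p6, chr17:53479102-53479181, plus strand: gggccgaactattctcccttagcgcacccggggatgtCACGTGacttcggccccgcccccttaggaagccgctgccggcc
Pdcd6ip, GRCm38.p6, chr9:113708260-113708339, minus strand: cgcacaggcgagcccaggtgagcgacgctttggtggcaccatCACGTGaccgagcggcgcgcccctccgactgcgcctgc
The E-box begins 95 bases before the start of Rab5a and 38 bases before that of Pdcd6ip. The log2 fold change was 0.28 for Rab5a and -0.06 for Pdcd6ip. A match of letters is a description of the sequence and carries no reading on binding.

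ESCRT-0, which binds ubiquitinated cargo on the endosome, had members on both sides. Hgs, which encodes the HRS subunit, had 156 and 172 CPM in sEV tumours 3 and 4, against 182 and 182 CPM in dinutuximab tumours 3 and 4. Both sEV tumours lay below both dinutuximab tumours, with a log2 fold change of -0.15 ± 0.13 (SE, edgeR adjusted p = 0.909). Its partner gene Stam2 had 51.0 and 50.6 CPM in the sEV tumours, against 46.1 and 44.8 CPM in the dinutuximab tumours. Here both sEV tumours were above, at a log2 fold change of 0.16 ± 0.13 (SE, edgeR adjusted p = 0.909). Stam, the paralogue of Stam2, overlapped between groups (0.18 ± 0.15).

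In ESCRT-I, Tsg101, whose product binds the short motif that recruits the complex, had 80.4 and 72.3 CPM in the sEV tumours, against 78.3 and 73.2 CPM in the dinutuximab tumours. The groups interleaved and the log2 fold change was 0.01 ± 0.13 (SE), with a 95% interval from -0.29 to 0.31. Vps37b, a subunit that varies between ESCRT-I complexes, had 112 and 90.6 CPM in the sEV tumours, against 109 and 127 CPM in the dinutuximab tumours (log2 fold change -0.22 ± 0.15, edgeR adjusted p = 0.909). Its groups overlapped, and 918 of its exon bases are shared with Hip1r on the opposite strand, so its count is uncertain where the strand setting is not given. Vps37a overlapped between groups, with -0.08 ± 0.16 (SE). The ESCRT-II gene Snf8 had 74.3 and 62.4 CPM in the sEV tumours, against 66.5 and 55.2 CPM in the dinutuximab tumours, and these ranges overlapped (0.17 ± 0.15, edgeR adjusted p = 0.922). Vps36 was near 0, at 0.03 ± 0.13. Vps25 had 7 and 4 counts in the sEV tumours, against 5 and 4 counts in the dinutuximab tumours, and was not tested. It shares 1103 of 1642 exon bases with Ramp2 on the same strand, so whether Vps25 is low or only poorly counted cannot be told apart here.

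ESCRT-III, the filament former, had 8 members, 6 of them with positive fold changes and a median of 0.11, and 0 called. Chmp4b, the main filament subunit, was the most abundant at 372 ± 31.9 TPM (SD over the 4 tumours), and Chmp7, which also works at the nuclear envelope, was the lowest at 19.3 ± 0.865 TPM. Chmp2a, a late subunit that recruits VPS4, had the lowest p of the group. It had 149 and 116 CPM in the sEV tumours, against 122 and 97.1 CPM in the dinutuximab tumours, with a log2 fold change of 0.27 ± 0.17 (SE, edgeR adjusted p = 0.908). The groups overlapped, and without sEV tumour 3 the value was 0.08. Its paralogue Chmp2b had 51.1 and 47.4 CPM in the sEV tumours, against 47.3 and 44.6 CPM in the dinutuximab tumours (0.10 ± 0.13), so that the groups separated by a margin smaller than the gap within either group. Chmp7 had sEV tumours below dinutuximab tumours, at 46.0 and 43.3 CPM against 46.1 and 48.3 CPM. The other 5 members, Chmp1a, Chmp3, Chmp4b, Chmp5 and Chmp6, overlapped between groups, with log2 fold changes from -0.08 for Chmp5 to 0.15 for Chmp3.

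The VPS4 ATPases and the ALIX branch differed little, with a median log2 fold change of 0.03 over 4 members. Vps4b had 83.7 and 86.1 CPM in the sEV tumours, against 84.5 and 85.5 CPM in the dinutuximab tumours, and Vps4a had 72.1 and 67.3 CPM, against 67.1 and 66.8 CPM. Fold changes were 0.00 ± 0.12 for Vps4b and 0.06 ± 0.13 for Vps4a. Per length, Vps4a stood higher, at 71.8 ± 4.0 TPM against 25.3 ± 1.34 TPM for Vps4b (SD over the 4 tumours). Pdcd6ip, which encodes ALIX, the adaptor between syntenin and ESCRT-III, had 202 and 186 CPM in the sEV tumours, against 201 and 205 CPM in the dinutuximab tumours, with a log2 fold change of -0.06 ± 0.13 (SE, edgeR adjusted p = 0.963). Pdcd6, which encodes the calcium-binding partner of ALIX, had 147 and 138 CPM in the sEV tumours, against 145 and 118 CPM in the dinutuximab tumours (0.12 ± 0.14, edgeR adjusted p = 0.947). Both overlapped between groups.

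Syntenin joins ALIX to the tails of syndecans. Its gene Sdcbp had 276 and 288 CPM in the sEV tumours, against 308 and 270.0 CPM in the dinutuximab tumours, so that the sEV tumours lay between the dinutuximab tumours (-0.03 ± 0.13, edgeR adjusted p = 0.985). Sdc1 had 537 and 390.3 CPM in the sEV tumours, against 365 and 393 CPM in the dinutuximab tumours. Only sEV tumour 3 was high, and the log2 fold change of 0.29 ± 0.17 (SE, edgeR adjusted p = 0.901) was 0.03 without that tumour. Sdc1 is also a gene of plasma cells and keratinocytes. The 6 B and plasma cell markers summed to 4.32 and 5.23 CPM in the sEV tumours, against 8.69 and 4.01 CPM in the dinutuximab tumours. The 9 keratinocyte markers summed to 18.1 and 15.8 CPM in the sEV tumours, against 16.3 and 19.6 CPM in the dinutuximab tumours. Most of each sum was Sfn, with 16.1 and 15.5 CPM in the sEV tumours, against 16.1 and 19.45 CPM in the dinutuximab tumours. Krt5 had 15 counts and Krt14 had 22 counts in sEV tumour 3, and both had 0 in the other 3 libraries. The part of plasma cells and keratinocytes in the Sdc1 value was not tested. Sdc4 overlapped between groups, at 483 and 421 CPM against 486 and 456 CPM (-0.06 ± 0.13).

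Tetraspanins are the classical surface proteins of small vesicles, and CD9, CD63 and CD81 are used to recognise them. Cd9 had 578 and 537 CPM in the sEV tumours, against 525 and 509 CPM in the dinutuximab tumours. Both sEV tumours were above, by a log2 fold change of 0.11 ± 0.12 (SE, edgeR adjusted p = 0.944). Cd63 had 707 and 545 CPM in the sEV tumours, against 619 and 553 CPM in the dinutuximab tumours (0.10 ± 0.16, edgeR adjusted p = 0.960), and without sEV tumour 3 its value was -0.11. Cd81 had 379 and 394 CPM in the sEV tumours, against 427 and 375 CPM in the dinutuximab tumours (-0.05 ± 0.13, edgeR adjusted p = 0.973). Cd63 and Cd81 thus overlapped between groups, and the intervals of all 3 markers lay inside 1.5-fold. Cd151, a partner of laminin-binding integrins, had the lowest p among tetraspanins. It had 172 and 124 CPM in the sEV tumours, against 140.3 and 109 CPM in the dinutuximab tumours, with overlapping groups and a log2 fold change of 0.25 ± 0.19 (SE, edgeR adjusted p = 0.909) that was -0.02 without sEV tumour 3. Cd82, a tetraspanin known as a metastasis suppressor, had 11.6 and 14.2 CPM in the sEV tumours, just below the 15.6 and 14.3 CPM of the dinutuximab tumours (-0.21 ± 0.19). Tspan8 had 6 and 9 counts in the sEV tumours, against 9 and 8 counts in the dinutuximab tumours, and was not tested.

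Among the GTPases, Rab5a and Arf6 had the lowest unadjusted p, with opposite directions. Rab5a, whose product builds early endosomes, had 59.6 and 50.8 CPM in the sEV tumours, against 48.4 and 42.7 CPM in the dinutuximab tumours. Both sEV tumours were above, at a log2 fold change of 0.28 ± 0.15 (SE, edgeR unadjusted p = 0.0957, adjusted p = 0.887), and the value was 0.15 without sEV tumour 3. Arf6, which with phospholipase D2 acts on syntenin vesicles, had 268 and 313 CPM in the sEV tumours, against 364 and 334 CPM in the dinutuximab tumours. Both sEV tumours were below, at -0.26 ± 0.14 (SE, edgeR unadjusted p = 0.0861, adjusted p = 0.887), and the value was -0.17 without sEV tumour 3.

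The docking genes Rab27a and Rab27b were scarce. Rab27a had 13 and 45 counts in the sEV tumours, against 31 and 25 counts in the dinutuximab tumours, so the sEV tumours were both the lowest and the highest (-0.11 ± 0.53, edgeR adjusted p = 0.991). Rab27b had 24 and 24 counts in the sEV tumours, against 29 and 18 counts in the dinutuximab tumours (-0.10 ± 0.42, edgeR adjusted p = 0.987). At these counts the 95% interval reached from -1.33 to 1.11 for Rab27a and from -1.05 to 0.86 for Rab27b, so that a level lower by 2-fold lies inside both intervals. The other GTPase genes were well measured and overlapped between groups. Rab7, of late endosomes, was the highest of them at 330 ± 29.6 TPM, with a log2 fold change of 0.10 ± 0.13. Rab11a, of recycling endosomes, had 0.15 ± 0.15, Rab31, which drives an ESCRT-independent route, 0.06 ± 0.14, and Rab35, of fast recycling, -0.04 ± 0.13.

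Of the neutral sphingomyelinase genes, Smpd3 was scarce. Smpd2 stood at 10.4 ± 0.763 TPM (SD over the 4 tumours), against a median of 14.2 TPM for all tested genes. Smpd3 had 5 and 19 counts in the sEV tumours, against 1 and 12 counts in the dinutuximab tumours. The tumours numbered 4 were higher than those numbered 3 in both groups, and the log2 fold change of 0.71 ± 0.92 (SE, edgeR adjusted p = 0.947) had an interval from -1.40 to 2.81. Smpd3 also shares 247 exon bases with Prmt7 on the opposite strand, which makes so low a count uncertain. Smpd2 had 18.5 and 17.6 CPM in the sEV tumours, against 18.2 and 15.7 CPM in the dinutuximab tumours (0.09 ± 0.17), and shares 905 exon bases with Mical1 on the opposite strand. Flotillins, scaffolds of lipid domains, were abundant. Flot2 had 138 and 117 CPM in the sEV tumours, against 115 and 103 CPM in the dinutuximab tumours, with both sEV tumours above (0.22 ± 0.14, edgeR adjusted p = 0.908) and 0.09 without sEV tumour 3. Flot1 overlapped between groups (0.11 ± 0.15).

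Vamp7, a SNARE of late endosomes and lysosomes that fuses them with the plasma membrane, had the lowest p of all members. It had 45.9 and 43.0 CPM in the sEV tumours, against 38.0 and 30.7 CPM in the dinutuximab tumours. Both sEV tumours were above both dinutuximab tumours, the means were 44.5 ± 2.0 CPM in the sEV tumours and 34.4 ± 5.18 CPM in the dinutuximab tumours (SD, n = 2 each), and the log2 fold change was 0.37 ± 0.16 (SE). The edgeR unadjusted p was 0.042 and the adjusted p 0.869, so it did not pass. Leaving out single libraries gave values from 0.22 to 0.53, with 0.32 without sEV tumour 3. As 1 of 42 members at an unadjusted p under 0.05, against 5.57% of all tested genes, it does not set the list apart. In GENCODE M21, Vamp7 lies at 10738 to 39148 on the minus strand of a GRCm38 scaffold that is not part of an assembled chromosome sequence. Ykt6, a SNARE that vesicle release requires in fly and human cells, had 155 and 119.6 CPM in the sEV tumours, against 124 and 122 CPM in the dinutuximab tumours, with only sEV tumour 3 high (0.16 ± 0.15, and -0.05 without that tumour).

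The slight lean of the members to positive values changed in size when single libraries were left out. Fold changes were positive in 27 of 42 members (64.3%), against 50.3% of all tested genes. Of the 42 members, 26 (61.9%) had their highest CPM in sEV tumour 3, where 28.9% of all tested genes did. Another 3 (7.14%) had it in sEV tumour 4, where 19.2% of all tested genes did. The lowest CPM was in dinutuximab tumour 4 for 21 members, and for 26.5% of all tested genes. Without sEV tumour 3, 18 of 42 members were positive and the median was -0.02, against -0.01 over all tested genes. Without dinutuximab tumour 4 the median was 0.02, against 0.01 over all tested genes. Without sEV tumour 4 it rose to 0.14, against -0.01 over all tested genes. With 2 tumours per group, these values show how the lean moves and not where it comes from. The genes that were high in sEV tumour 3 came from several roles: Sdc1, Cd151, Chmp2a, Ykt6, Chmp3 and Cd63 were each higher there than in any other library. Between the sEV tumours the median absolute log2 difference over members was 0.19, and between the dinutuximab tumours 0.12. The median absolute log2 fold change between groups was 0.11. Its smaller size decides nothing, because a gap between single tumours tends to exceed a difference of means even without a group effect.

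**Figure D3:**
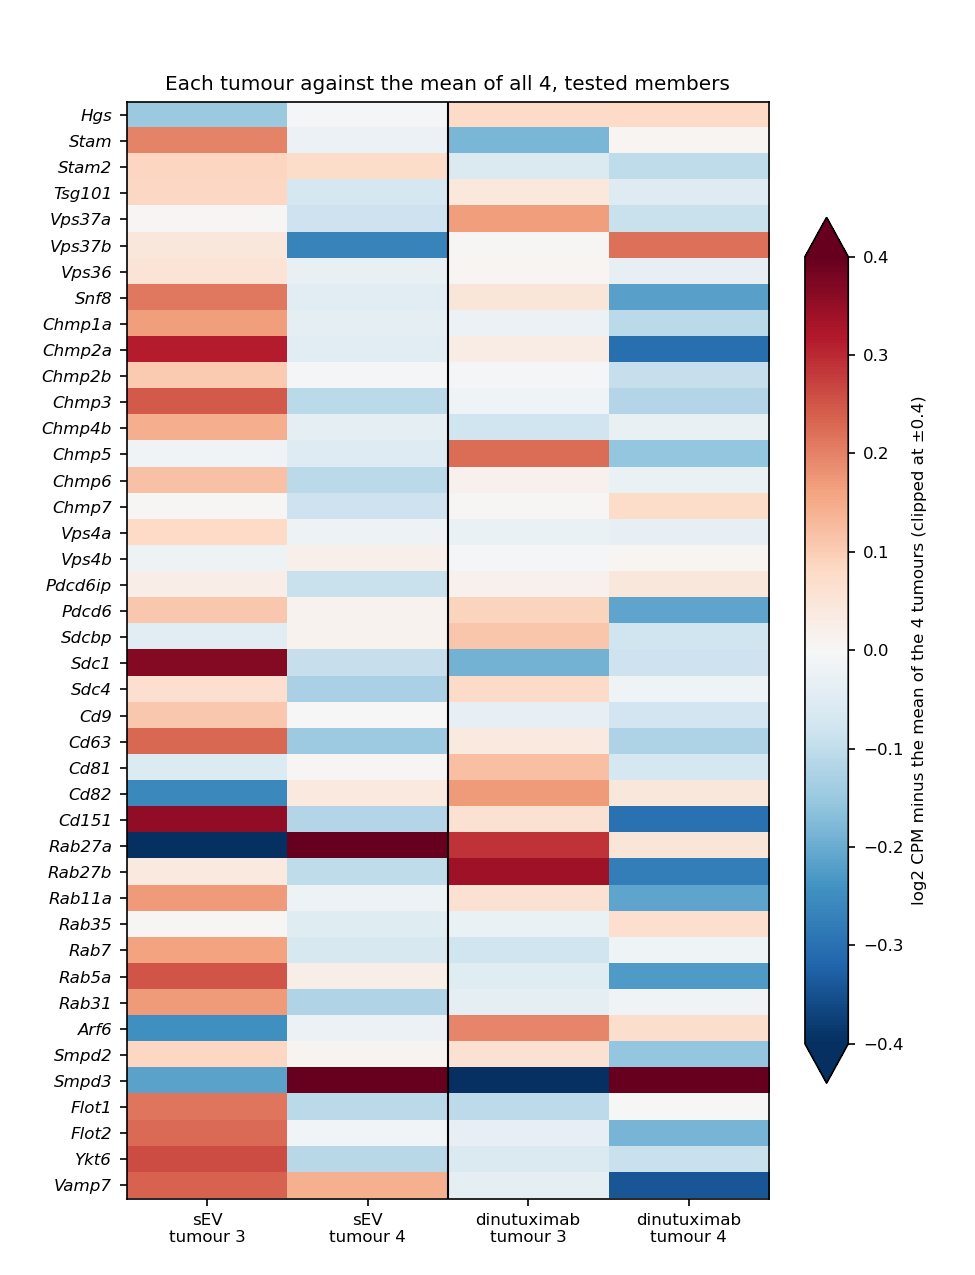
Log2 CPM of each tested member in each tumour minus its mean over the 4 tumours, with sEV tumours left of the line and dinutuximab tumours right of it. The column of sEV tumour 3 is mostly red, where 26 of 42 members have their highest value, against 28.9% of all tested genes. In sEV tumour 4, 3 members have it, against 19.2% of all tested genes.

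**Figure D4:**
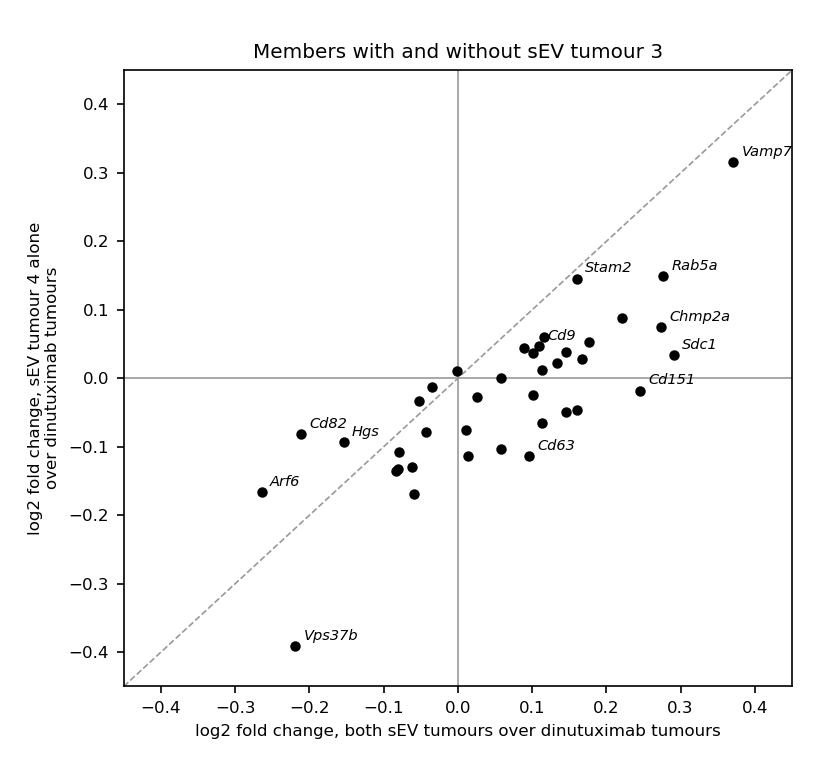
Log2 fold change of the 39 tested members above 1 TPM, from both sEV tumours on the horizontal axis and from sEV tumour 4 alone on the vertical axis, each over the dinutuximab tumours, with the dashed line marking equal values. Of the points, 33 lie below the dashed line, and Vamp7 stays the highest at 0.32.

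The rest of the pathway was read from 109 further genes, of which 108 had a row and 101 passed the filter. By the edgeR test 0 were higher and 0 lower, 6 (5.94%) were higher and 3 (2.97%) lower at an unadjusted p under 0.05, against 2.47% and 3.10% of all tested genes, and the median log2 fold change was 0.07. DESeq2 called 0 higher and 0 lower, with 6 and 3 at an unadjusted p under 0.05, and limma-voom called 0 and 0, with 5 and 3. The groups did not overlap in 41 of 101 (40.6%), against 34.6% of all tested genes. The 5 of lowest p were Chm, Arrdc1, Sphk2, Tspan6 and Lamp2, none of which passed. Chm, which encodes the escort protein that presents RAB proteins for prenylation, had 29.6 and 29.1 CPM in the sEV tumours, against 21.7 and 22.3 CPM in the dinutuximab tumours (0.42 ± 0.14, edgeR adjusted p = 0.774). Arrdc1, an adaptor for budding at the plasma membrane, had 29.0 and 31.7 CPM in the sEV tumours, against 22.9 and 22.9 CPM in the dinutuximab tumours (0.41 ± 0.15, edgeR adjusted p = 0.804). Each group was tight in these 2 genes, and neither overlapped.

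Sphk2, which makes sphingosine 1-phosphate, had 31.1 and 32.0 CPM in the sEV tumours, against 38.0 and 43.9 CPM in the dinutuximab tumours (-0.38 ± 0.15, edgeR adjusted p = 0.841). Tspan6, a tetraspanin that binds syntenin, had 7.49 and 6.45 CPM in the sEV tumours, against 10.3 and 9.95 CPM in the dinutuximab tumours (-0.54 ± 0.21, edgeR adjusted p = 0.841). Lamp2, a lysosome membrane protein gene, had 353 and 340.0 CPM in the sEV tumours, against 282 and 282 CPM in the dinutuximab tumours (0.30 ± 0.12, edgeR adjusted p = 0.861). Lysosome genes are abundant in macrophages, whose summed markers were higher in both sEV tumours than in both dinutuximab tumours as given above, and their part in the Lamp2 value was not tested. Of the 9 RAB27 effector genes on the list, 6 did not pass the filter on low counts, namely Sytl1, Sytl3, Sytl4, Sytl5, Exph5 and Myrip. Sytl2, Unc13d and Mlph passed it, at 0.1 ± 0.0364, 6.09 ± 0.949 and 8.08 ± 3.25 TPM (SD over the 4 tumours), and 0 of them were called. These 9 were singled out after their values were seen.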

How the data were processed

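Messenger RNA of 4 tumours was read as raw counts that the authors deposited for 43432 Ensembl IDs, in 1 joint table whose values equal those of the separate sample tables. STAR, SAMtools and HTSeq, with mm10, stand in the submitters' processing notes. The sources used here give no version, annotation, counting mode or strand setting, so counts of overlapping genes are uncertain. GENCODE M21 (GRCm38, the assembly mm10 denotes) named 42548 IDs and gave exon lengths. It left 884 unnamed, which stayed in the tests.

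The deposited counts were tested with edgeR 4.0.16 in R 4.3.3: filterByExpr at default settings, TMM scaling, a quasi-likelihood F test with the group as the only term, and Benjamini-Hochberg adjustment over 13823 genes at 0.05. CPM use TMM-adjusted library sizes. Intervals of 95% use the model's SE and degrees of freedom. An exact two-sided permutation of 2 and 2 tumours cannot go below p = 0.333, so none was run. P-values and intervals rest on the spread between these tumours, which the series design calls biological replicates, together with a spread shared by all genes. The weight of that shared spread was 6.48 prior degrees of freedom. TPM were computed from counts and exon lengths. The test was checked on simulated data with known fold changes. These were larger than the estimate of any member, and all genes shared a single spread. The check therefore does not cover differences of the members' size. The alternatives were DESeq2 1.42.0, limma-voom (limma 3.58.1), 2 other scalings, 2 other filters, robust dispersions, a threshold of 0.1, the tumour number as a block, and each library left out. Full values are given for 10 genes of interest, the member of lowest p in each role and any member at an unadjusted p under 0.05; other members are given in brief, and the 5 further pathway genes of lowest p are named. The members and lists were chosen with earlier results of these data known. The levels of some marker genes are not reported here.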

Additional observations from a re-analysis of the deposited data

How the results depend on the processing

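In the alternatives run, 0 members were called higher and 0 lower in any. Over all genes, where edgeR called 0 higher and 0 lower, DESeq2 called 17 higher and 38 lower, edgeR without a filter on low counts 107 and 155, and edgeR with the tumour number as a replicate block 21 and 46. The calls over all genes were 48 higher and 84 lower without sEV tumour 3, 160 higher and 156 lower without sEV tumour 4, 0 higher and 0 lower without dinutuximab tumour 3, 0 higher and 0 lower without dinutuximab tumour 4. The edgeR fits differed in the prior degrees of freedom, the weight of the spread shared by all genes. These were 6.48 in the main fit, 14.7 with the block, and infinite without the filter. They were also infinite without sEV tumour 3 and without sEV tumour 4. Without dinutuximab tumour 3 they were 5.29, and without dinutuximab tumour 4 they were 6.15. The part of this weight in the calls was not tested. The labels do not say that a tumour number marks anything shared, and the deviations of same-numbered tumours correlated at 0.0659 over 13823 genes. With the block, 2 members had an unadjusted p under 0.05, Vamp7 (0.38 ± 0.14, edgeR adjusted p = 0.388) and Chmp2a (0.27 ± 0.12, edgeR adjusted p = 0.547), and 0 were called. The members' median log2 fold change ranged from -0.021 without sEV tumour 3 to 0.14 without sEV tumour 4. Of 502 member values over the alternatives, 472 kept their direction, and 30 changed it. With total-count scaling, which moved the median of all genes to 0.04, Vps4b was 0.035 and Sdcbp 0.0033. Where the direction changed, log2 fold changes without 1 library ranged from -0.076 to 0.086 for Tsg101, from -0.21 to 0.049 for Vps37a, from -0.027 to 0.069 for Vps36, from -0.050 to 0.31 for Chmp3, from -0.26 to 0.12 for Chmp5 and from -0.11 to 0.12 for Chmp6. Further ranges ran from -0.00019 to 0.11 for Vps4a, from -0.021 to 0.011 for Vps4b, from -0.028 to 0.27 for Pdcd6, from -0.13 to 0.063 for Sdcbp, from -0.17 to 0.037 for Sdc4 and from -0.11 to 0.27 for Cd63. They also ran from -0.14 to 0.044 for Cd81, from -0.018 to 0.46 for Cd151, from -1.16 to 0.47 for Rab27a, from -0.37 to 0.24 for Rab27b, from -0.090 to 0.0036 for Rab35 and from -0.024 to 0.21 for Rab7. The remaining ranges ran from -0.10 to 0.20 for Rab31, from -0.016 to 0.20 for Smpd2, from -0.44 to 3.31 for Smpd3, from -0.065 to 0.27 for Flot1 and from -0.046 to 0.34 for Ykt6. With 1 library left out, the group with a lone library takes its spread from the other. Rab27a, Rab27b, Smpd3, Vps25 and Tspan8 had no more than 45 counts in a library, which limits what their values can show.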
